A study of Mus musculus with 2 samples.

Results

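The synaptonemal complex genes described here are the 7 rows whose symbols are Sycp1, Sycp2, Sycp3, Syce1, Syce2, Syce3 and Tex12, taken by symbol from the 50686 genes of the count matrix. All 7 were present, and each was followed across all 2552 cells of both mice. Single cells were prepared from whole testis of 2 wild-type C57Bl/6J Crl mice aged 8 weeks, littermates that received no treatment. Each mouse gave 1 droplet library made with a kit that captures the 3' end of messenger RNA and counts unique molecular identifiers (UMIs). Both libraries belonged to 1 condition, so the comparisons below are between germ cell stages and not between the mice. The matrix held 27450497 UMIs in 1237 cells of mouse 1 and 30302332 UMIs in 1315 cells of mouse 2, and no cell barcode was shared between them.

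The synaptonemal complex is the protein zipper that joins homologous chromosomes lengthwise during the first meiotic prophase. Its lateral elements, which line each chromosome axis, contain SYCP2 and SYCP3. SYCP1 forms the transverse filaments that span the gap, and SYCE1, SYCE2, SYCE3 and TEX12 form the central element along the midline. The complex assembles in zygotene, is complete in pachytene and comes apart in diplotene, before the meiotic divisions and well before the haploid spermatids reshape into sperm. Male mice that lack one of the core proteins are infertile, with spermatocytes arrested in meiosis.

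Promoter sequences are shown for 4 members whose levels took different courses through the stages, Sycp1, Sycp3 and Tex12 on the one hand and Syce2 on the other. Each run holds the 250 bases before the RefSeq transcription start on GRCm38.p6, read 5' to 3' on the strand of the gene. Syce2 and Syce3 had 2 listed starts each, and only the most upstream was used. The shares over all promoters below count every listed start. Capitals mark letters of a searched motif, TCCCGC of E2F6, a repressor that keeps meiotic genes silent outside the germline, or TAACNG of the MYB factors, among them the meiotic activator MYBL1. Both strands were searched.
Sycp1, chr3:102936101-102936350, minus strand: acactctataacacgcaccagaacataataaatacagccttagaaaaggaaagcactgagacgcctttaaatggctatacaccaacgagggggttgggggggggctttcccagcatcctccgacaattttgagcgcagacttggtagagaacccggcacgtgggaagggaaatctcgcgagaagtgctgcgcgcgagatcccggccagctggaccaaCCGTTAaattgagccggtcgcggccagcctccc
Sycp3, chr10:88459337-88459586, plus strand: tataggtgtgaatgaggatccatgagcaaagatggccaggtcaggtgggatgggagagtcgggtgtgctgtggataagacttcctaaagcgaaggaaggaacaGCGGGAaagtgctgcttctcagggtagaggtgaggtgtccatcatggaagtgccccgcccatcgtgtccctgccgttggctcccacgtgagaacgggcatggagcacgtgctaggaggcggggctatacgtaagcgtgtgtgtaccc
Tex12, chr9:50561269-50561518, minus strand: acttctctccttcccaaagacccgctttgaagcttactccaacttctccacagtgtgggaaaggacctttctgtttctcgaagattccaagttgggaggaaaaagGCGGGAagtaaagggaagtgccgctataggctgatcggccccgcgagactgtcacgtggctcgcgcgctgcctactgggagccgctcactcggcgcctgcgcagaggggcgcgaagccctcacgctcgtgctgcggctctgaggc
Syce2, chr8:84871861-84872110, plus strand: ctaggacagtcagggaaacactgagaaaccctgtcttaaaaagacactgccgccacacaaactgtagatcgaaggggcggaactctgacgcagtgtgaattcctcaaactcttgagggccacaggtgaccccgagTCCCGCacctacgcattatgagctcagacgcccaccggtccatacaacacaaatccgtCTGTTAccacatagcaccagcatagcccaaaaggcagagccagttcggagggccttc
The E2F6 letters were present in 3 of the 7 members, Sycp3, Tex12 and Syce2, and in 16.9% of 32841 mouse promoters of the same length. The MYB letters were present in Sycp1, Sycp2 and Syce2, and in 19.8% of all promoters. CNCCTCAG, the motif of the meiotic initiator STRA8, was found in none of the 7 windows and in 6.42% of all promoters. TGACGTCA, the cAMP response element bound by the spermatid factor CREM, was likewise found in none and in 1.55% of all promoters. The windows of Syce1 and Syce3 held none of the 4 motifs. The number of CG pairs also differed, from 5 in Syce3 to 20 in Tex12, against a median of 6 over all promoters.

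The genes lie on 7 different chromosomes (GENCODE annotation on GRCm38). Sycp1 covers chr3:102818499-102936100 on the minus strand, Sycp2 chr2:178345293-178407685 on the minus strand and Sycp3 chr10:88459569-88473236 on the plus strand. Syce1 covers chr7:140777229-140787852 on the minus strand, Syce2 chr8:84872111-84888221 on the plus strand, Syce3 chr15:89390174-89410503 on the minus strand and Tex12 chr9:50556819-50561325 on the minus strand. The longest models ran from 480 bases over 3 exons for Syce3 to 5717 bases over 44 exons for Sycp2. A library of 3' ends does not tell full transcripts from shorter ones that share an end. Sycp1, Sycp2 and Syce2 each had 4 annotated transcripts with 4 different ends. In the annotation, 3 members overlap protein-coding genes on the opposite strand, and whether reads were assigned by strand was not given in the sources used here. Chpt1, a lipid synthesis gene across Sycp3, had 1455 UMIs in all and a level of 52.4 CPM in early spermatocyte-like cells. Gcdh across Syce2 had 23 UMIs and Il18 across Tex12 had 36. Sycp1 also has a pseudogene copy, Sycp1-ps1, with 600 UMIs, and reads of the 2 could be exchanged or, where they match both, left out.

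Cells were sorted into stages by K-means clustering in which the 7 members and 42 related genes took no part, and clusters were named from marker genes. In all, 5 germ cell classes were large enough for both mice, and a name ending in "-like" rests on markers alone. They held 164 early spermatocyte-like cells (53 in mouse 1 and 111 in mouse 2), 527 pachytene or later spermatocyte-like cells (later spermatocyte-like below), 689 cells that stayed unnamed, 449 round spermatid-like cells and 705 elongating or condensing spermatid-like cells (elongating below) in 2 clusters of 198 and 507. The unnamed cells passed 1 of 12 round spermatid markers and were led by Ssxb1 and Ssxb2. Only 6 cells were spermatogonium-like, 7 Sertoli-like and 5 Leydig-like. The early spermatocyte-like name rests on 6 of 12 markers, with Meioc at 243 CPM and Meiob at 31.0 CPM, while Prdm9 was nearly absent at 0.569 CPM and Mei4 was at 0. The markers did not separate the 2 spermatocyte classes cleanly, with a mean marker score of 0.341 for the early list and 0.267 for the pachytene list in this cluster. Of the pachytene list, Piwil1 was at 799 CPM in it and 164 CPM in the later class, Mybl1 at 103 and 58.2 CPM and Hspa2 at 1942 and 1516 CPM. Of the early list, Tex15 was at 5.12 CPM here and 81.9 CPM in unnamed cells, and M1ap at 3.70 CPM here and 41.4 CPM in elongating cells. Tex101, Gml and Hmgb2 led that cluster, and Tex12 and Sycp1 were also among its 10 leading genes, although neither had entered the clustering.

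As a share of all UMIs, the 7 members together were highest at the start of this series of 5 large classes. Of the 7 members, 5, Sycp1, Sycp2, Sycp3, Syce3 and Tex12, were at their highest in early spermatocyte-like cells in both mice. The share of all genes that peak in that class was not computed, so this count is not read as a trait of the members. Syce1 peaked 1 stage later, in later spermatocyte-like cells, and Syce2 was highest in elongating cells. The same order of peaks was obtained from UMIs per cell in place of shares. The 6 spermatogonium-like cells are not part of this series, and their levels rest on 5 to 53 UMIs per gene. Mean CPM there were 794 for Sycp1, 68.9 for Sycp2, 417 for Sycp3 and 197 for Syce1. They were 368 for Syce2, 116 for Syce3 and 139 for Tex12, and only Syce2 was above its early spermatocyte-like level. Levels below are UMIs of the gene per 1000000 UMIs of all rows (CPM), summed over the cells of a class and mouse, and have no length correction, so levels are compared between classes and not between genes.

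**Figure D1:**
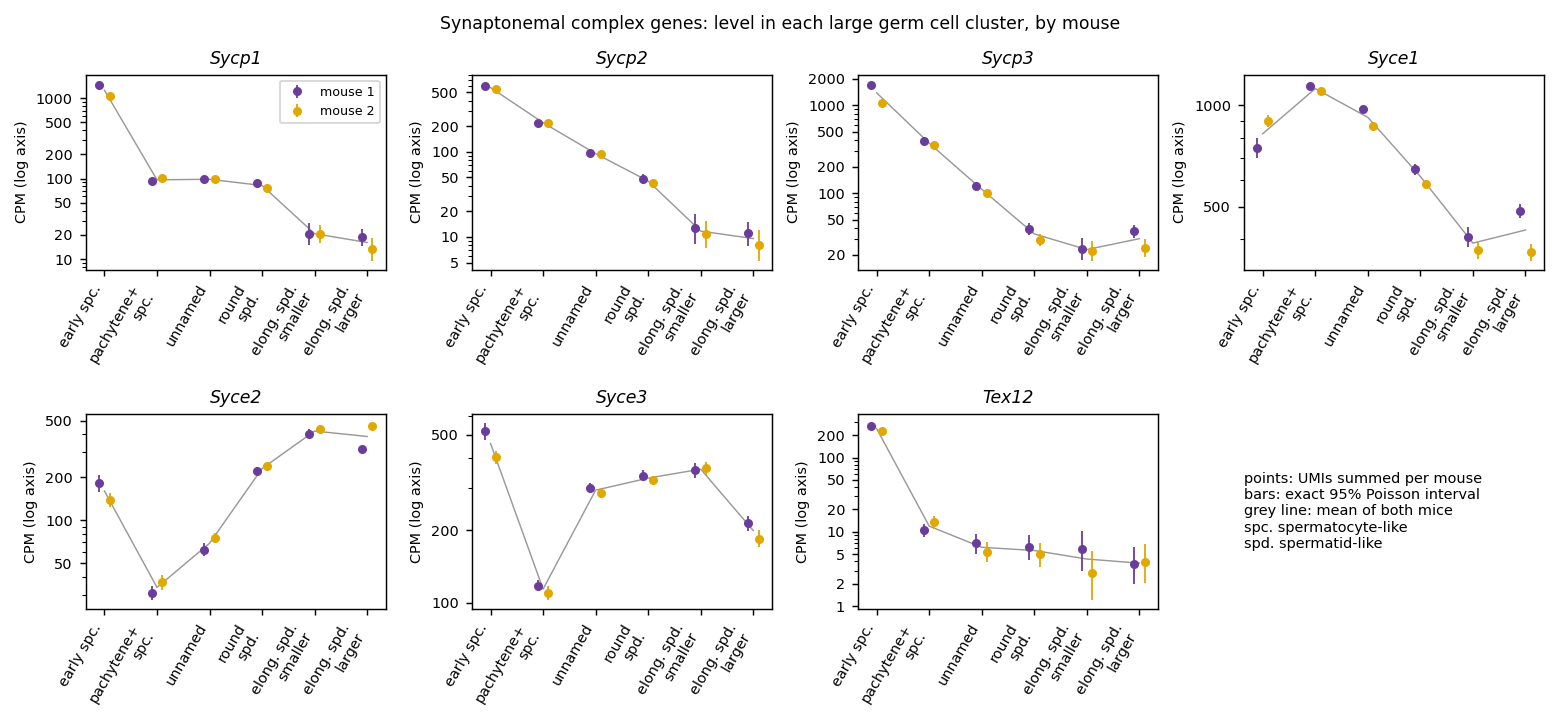
Level of each synaptonemal complex gene in the 6 large germ cell clusters, as CPM on a log axis, 1 point per mouse with its exact 95% Poisson interval and a grey line through the mean of both mice. Sycp1, Sycp2, Sycp3 and Tex12 are highest in the early spermatocyte-like cells, Syce3 dips in later spermatocyte-like cells and returns, and Syce2 climbs to over 300 CPM in both mice in both elongating clusters.

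Sycp1, the transverse filament gene, stood at 1451 CPM in mouse 1 and 1060 CPM in mouse 2 in early spermatocyte-like cells. It was at 92.8 and 100.6 CPM in later spermatocyte-like cells, at 98.8 and 97.6 CPM in unnamed cells and at 87.1 and 77.3 CPM in round spermatid-like cells. In the elongating cells it was at 18.2 ± 1.95 CPM (SD, n = 2 mice). The drop after the first class was followed by a plateau over 3 classes, of which the unnamed and the later spermatocyte-like cells overlapped between mice. Of all Sycp1 UMIs, 49.5% came from the early spermatocyte-like cells, which were 164 of 2552 cells. Sycp1-ps1 differed from Sycp1 in the first step, with 0.871 CPM in early spermatocyte-like cells and 17.2 CPM in later spermatocyte-like cells. It was then at 10.6 CPM in unnamed, 9.77 CPM in round spermatid-like and 2.77 CPM in elongating cells. Exchange or loss of reads between the copies was not tested.

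Among the lateral element genes, Sycp2 declined stepwise. It was at 588 and 547 CPM in early spermatocyte-like cells, 219 and 220 CPM in later spermatocyte-like cells, 96.8 and 93.5 CPM in unnamed cells and 47.9 and 42.8 CPM in round spermatid-like cells. Elongating cells held 10.5 ± 1.52 CPM (SD, n = 2 mice). No 2 neighbouring classes overlapped between the mice, and each step was a fall. Sycp3, which builds the axis together with SYCP2, was at 1686 and 1071 CPM in early spermatocyte-like cells, 388 and 354 CPM in later spermatocyte-like cells and 122 and 101 CPM in unnamed cells. Round spermatid-like cells held 39.8 and 29.5 CPM and elongating cells 27.7 ± 6.37 CPM (SD, n = 2 mice), and these last 2 classes overlapped between the mice.

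The central element genes did not share 1 course. Tex12, whose product forms fibres with SYCE2, was at 262 and 228 CPM in early spermatocyte-like cells and at 10.4 and 13.4 CPM in later spermatocyte-like cells. The unnamed, round spermatid-like and elongating cells had means between 3.91 and 6.19 CPM. The early spermatocyte-like cells gave 67.2% of the 1248 Tex12 UMIs, the highest such share among the members.

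Syce2, the partner of TEX12, was at 181 and 139 CPM in early spermatocyte-like cells, fell to 30.8 and 36.8 CPM in later spermatocyte-like cells and then stood at 62.2 and 75.5 CPM in unnamed cells. It reached 222 and 239 CPM in round spermatid-like cells. In the smaller elongating cluster it was at 405 and 439 CPM and in the larger one at 314 and 458 CPM. The mice differed most in that last cluster, where mouse 2 was higher and the exact Poisson intervals of the mice did not overlap. No neighbouring classes overlapped between the mice, and 50.3% of all Syce2 UMIs came from the elongating cells.

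Syce3, which links the central element to the transverse filaments, had a level of 518 and 404 CPM in early spermatocyte-like cells and of 118 and 110 CPM in later spermatocyte-like cells. It was at 301 and 288 CPM in unnamed cells, 338 and 323 CPM in round spermatid-like cells and 356 and 364 CPM in the smaller elongating cluster, before 215 and 185 CPM in the larger one. Both mice thus had a first maximum in early spermatocyte-like cells and a broad return from the unnamed cells on.

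Syce1, a central element gene that joins SYCE3, was at 748 and 899 CPM in early spermatocyte-like cells and 1141 and 1101 CPM in later spermatocyte-like cells. Unnamed cells held 973 and 870 CPM, round spermatid-like cells 647 and 583 CPM and elongating cells 414 ± 62.1 CPM (SD, n = 2 mice). The early spermatocyte-like and the unnamed cells overlapped between the mice. At least 1 Syce1 UMI was found in 2537 of all 2552 cells, against 468 cells for Tex12. Over the 7 members, 4 of 28 pairs of neighbouring levels, in order of their means, overlapped between the mice. The same share over all genes was not computed, so the count is not read as a trait of the members.

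The low values need a background. Leydig-like cells, which do not undergo meiosis, had no UMI of Sycp1, Sycp2 or Tex12 in 5 cells, which allows a share of up to 52.2% by the exact 95% binomial interval, but Syce1 was found in 3 of them. The 7 Sertoli-like cells, the somatic nurse cells of the tubule, held Sycp1 in 5 cells, Sycp3 in 6 and Tex12 in 3. Their median depth was 12039 UMIs, and that of the Leydig-like cells 9856. The share of elongating cells with a UMI was 6.24% for Tex12, 13.9% for Sycp2, 19.9% for Sycp1 and 30.6% for Sycp3. All were below the share in Sertoli-like cells, and whether such levels are expression or background was not tested. After thinning to 5000 UMIs, Sycp1 was found in 57.1% of Sertoli-like cells, at 247 CPM before thinning. That share, from 7 cells, was above the 32.5% to 36.7% of the later spermatocyte-like, unnamed and round spermatid-like cells. Mean levels in these 3 classes ran from 82.2 to 98.2 CPM, against 18.2 CPM in elongating cells. The part of background in the Sycp1 plateau was not tested. By the same measure Syce1 was found in 85.4% of elongating cells and in 85.7% of Sertoli-like cells. Before thinning, Syce1 was at 457 and 370 CPM in the former and at 262 and 81.8 CPM in the latter. The Sertoli-like value of mouse 1 rests on 19 UMIs in 6 cells and that of mouse 2 on 1 UMI in 1 cell. For Sycp3 the thinned share was 71.4% in Sertoli-like cells, 81.8% in later spermatocyte-like, 44.7% in unnamed and 14.3% in round spermatid-like cells, and for Tex12 it was 28.6% in Sertoli-like and 4.36% in later spermatocyte-like cells. For Sycp2 it was 28.6% in Sertoli-like and 20.7% in round spermatid-like cells. With 7 Sertoli-like cells no background level could be set. Syce2 was found in 98.2% of the elongating cells and in 4 of the 7 Sertoli-like cells.

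Markers of elongating spermatids were also found in the other classes. These 12 markers took 16.2% and 13.1% of UMIs in elongating cells, 0.717% and 0.392% in early spermatocyte-like cells and 0.361% and 0.316% in later spermatocyte-like cells. Per 1000 UMIs of these markers, Syce2 had 2.14 and 3.43 UMIs in elongating cells and 25.3 and 35.5 in early spermatocyte-like cells. The part of free RNA in the early level of Syce2 was not tested.

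The share of cells with all 7 members was highest in the early class, while several members at once were common in later classes too. All 7 members were found in 150 of 164 early spermatocyte-like cells (91.5%), in 18.8% of later spermatocyte-like cells, 4.79% of unnamed cells, 2.45% of round spermatid-like cells and 0.567% of elongating cells. At least 5 members were found in 99.4% of early spermatocyte-like cells and in 82.5%, 80.6%, 69.7% and 15.2% of the later classes in the same order. After each cell was thinned to 5000 UMIs, at least 5 members remained in 92.7% of early spermatocyte-like cells and in 13.9%, 11.5%, 6.46% and 1.70% of the later classes in the same order. The mean number of members per thinned early cell was 5.92 and 5.95 in the respective mice, and 3.37 and 3.35 per later spermatocyte-like cell. The 7 members together made up 5435 and 4347 CPM in early spermatocyte-like cells and 1140 and 1143 CPM in elongating cells. Within the thinned early cells, Syce2 and Tex12, whose products bind each other, were found together in 69 cells, where the product of their separate shares gives 66.2 cells. Sycp1 and Sycp3 were found together in 151 cells, where the product gives 151.1.

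The germ cells were also placed on 1 continuous ordering by diffusion pseudotime and cut into 20 bins of equal cell number, again without the members. In bin 1, Sycp1 was at 1787 and 1474 CPM, Sycp2 at 653 and 628 CPM, Sycp3 at 2015 and 1351 CPM and Tex12 at 310 and 308 CPM. By bin 2, Sycp1 was at 236 and 253 CPM and Tex12 at 42.3 and 59.0 CPM. Sycp2 in bin 2 was still at 335 and 346 CPM and Sycp3 at 499 and 472 CPM, so the lateral element genes kept a larger share of their first level than the transverse filament gene. Syce1 peaked in bin 4 in mouse 1 and bin 3 in mouse 2, at 1164 and 1126 CPM.

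Syce3 opened at 604 and 500 CPM in bin 1 and was lowest at 102 CPM in bin 3 in mouse 1 and 103 CPM in bin 5 in mouse 2. It stood at 311 and 262 CPM in bin 8, where most cells were unnamed, and ended at 147 and 130 CPM in bin 20. With 10 bins, the first of which joins early and later spermatocyte-like cells, its peak was in bin 6 in mouse 1 and bin 7 in mouse 2, so which of its maxima is higher depends on the bin width. Syce2 opened at 217 and 172 CPM, was near 30 CPM from bin 3 to bin 6 and peaked at 397 CPM in bin 15 in mouse 1 and at 511 CPM in bin 20 in mouse 2. From bin 15 on, the mice parted, since mouse 1 went to 312 CPM in bin 20.

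**Figure D2:**
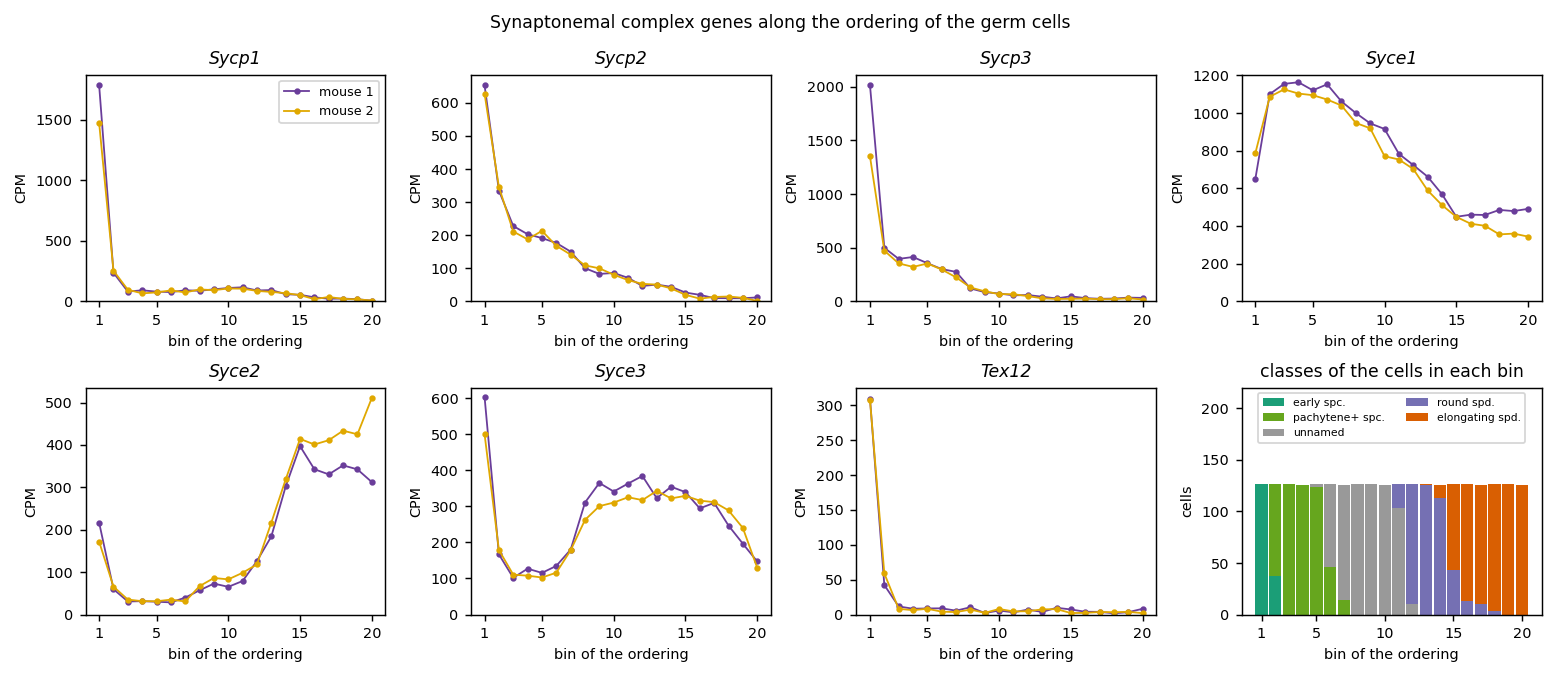
CPM of each synaptonemal complex gene in 20 bins along the ordering of 2534 germ cells, 1 line per mouse, with the classes of the cells in each bin in the last panel. Of the genes, 5 open at their maximum in bin 1, Syce1 peaks in bins 3 and 4, Syce2 opens at 217 and 172 CPM, dips and climbs, and Syce3 has a broad second rise from bin 8 on.

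The early spermatocyte-like cells were then divided into 4 segments of 41 cells along the ordering, a split chosen after the class values had been seen. The median UMI count per cell rose over them from 11396 to 33344, so a share and a number of UMIs per cell can move apart. Markers of stage did not all move 1 way over the segments. Meiob, a gene of meiotic recombination, went from 183 and 74.8 CPM to 14.2 and 6.27 CPM, and Meioc from 387 and 311 to 180 and 178 CPM, while Pou5f2, of the pachytene list, went from 4.07 and 3.74 to 62.7 and 141 CPM. Piwil1, of that list too, went from 440 to 784 CPM in mouse 1 and from 789 to 632 CPM in mouse 2, and Mybl1 was lower in the last segment in both mice. Sycp1 went from 3153 CPM to 521 CPM in mouse 1 and from 2630 to 375 CPM in mouse 2, and from 40.7 to 15.2 and from 32.0 to 12.4 UMIs per cell. The share and the number were both lower in the last segment than in the first in both mice. Tex12 behaved alike, from 432 to 120 and from 501 to 100.4 CPM, and from 5.58 to 3.50 and from 6.09 to 3.31 UMIs per cell. The numbers did not fall steadily in mouse 1, which had 19, 8, 14 and 12 cells in the segments. There, segments 2 and 3 held 22.5 and 31.9 Sycp1 UMIs per cell and 4.50 and 7.29 of Tex12. In mouse 2 the number of Sycp1 fell at each step and that of Tex12 did not.

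For the lateral element the 2 measures differed. Sycp2 went from 802 to 439 and from 741 to 413 CPM, but from 10.4 to 12.8 and from 9.0 to 13.6 UMIs per cell, so its share fell while its number did not. Sycp3 went from 3653 to 775 and from 2032 to 598 CPM, and from 47.2 to 22.7 and from 24.7 to 19.7 UMIs per cell. In the first segment mouse 1 was well above mouse 2. Syce3 had 11.8 and 7.32 UMIs per cell in the first segment and 8.42 and 8.00 in the last, and Syce2 had 4.53 and 2.82 against 2.58 and 2.76, with opposite directions in the mice for Syce3 and nearly equal values in mouse 2 for Syce2. Syce1 was higher in the last segment by both measures in both mice, from 452 to 975 and from 531 to 1074 CPM and from 5.84 to 28.5 and from 6.45 to 35.4 UMIs per cell.

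**Figure D3:**
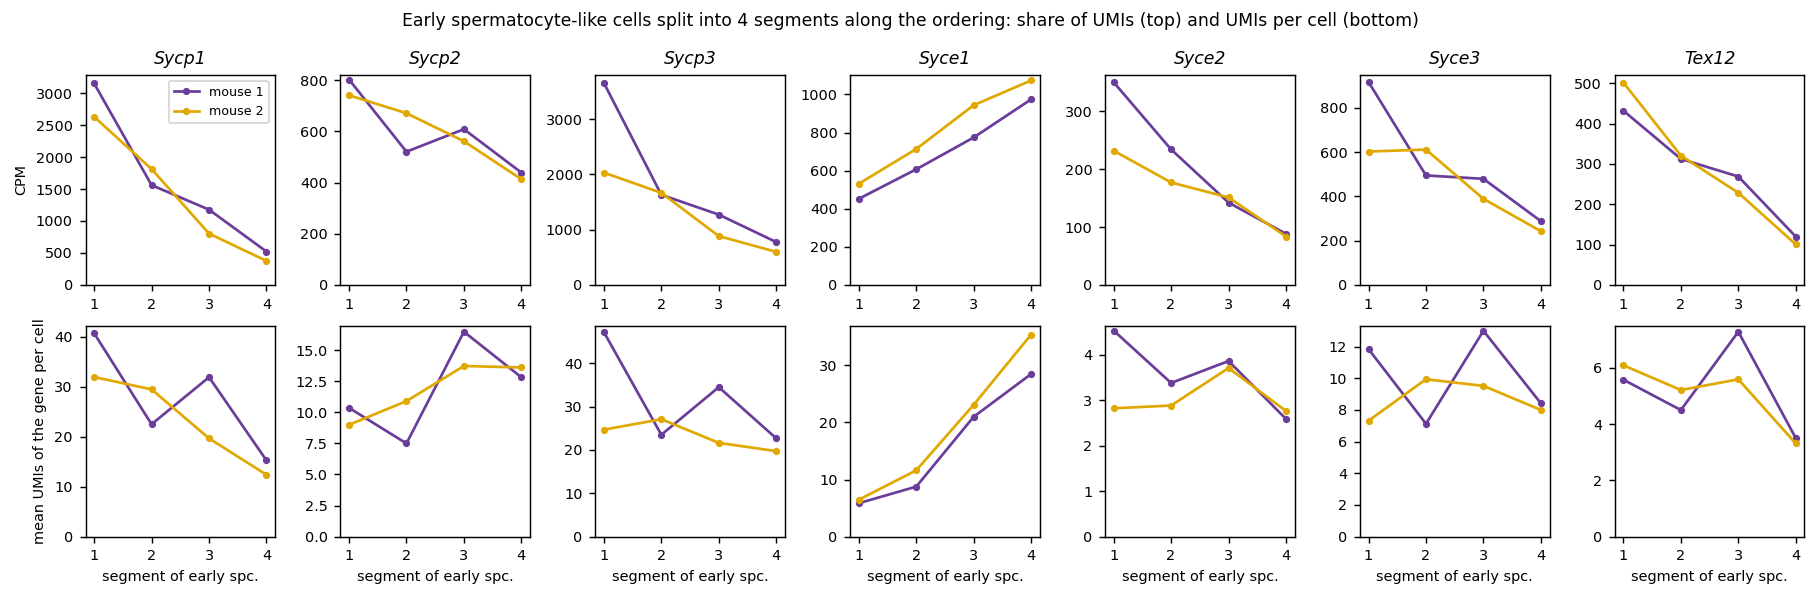
The 7 genes in 4 segments of the early spermatocyte-like cells, 41 cells each, as CPM in the top row and mean UMIs of the gene per cell in the bottom row, 1 line per mouse. The CPM of Sycp1, Sycp2, Sycp3, Syce2, Syce3 and Tex12 are lower in segment 4 than in segment 1 in both mice, while the UMIs per cell of Sycp2 are higher, and Syce1 climbs in both rows.

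Successive named stages were tested with edgeR on UMIs summed per mouse and class, with 10 sums in 1 fit and TMM scaling. P-values were adjusted by Benjamini-Hochberg across the 14726 genes that passed the filter. The unnamed cells lay mostly between later spermatocyte-like and round spermatid-like cells in the ordering. They entered the fit but none of the main comparisons. All 7 members passed the filter on low counts. The first question was how transcripts changed between the early and the later spermatocyte-like cells, classes that rest on markers and were not tied to assembly or loss of the complex itself. Of the members, 6 were lower and 1 was higher, where 23.6% of all genes tested were called lower and 25.0% higher. Tex12 fell by 4.08 on the log2 scale (SE 0.18, adjusted p = 1.9e-12, edgeR), and Sycp1 fell by 3.40 (SE 0.15, adjusted p = 1.9e-12, edgeR). Syce2 fell by 1.95 (SE 0.17), Syce3 by 1.72 (SE 0.14), Sycp3 by 1.59 (SE 0.18) and Sycp2 by 1.09 (SE 0.13), with edgeR adjusted p-values from 2.9e-09 to 7.2e-07. Syce1 was higher by 0.71 (SE 0.16, adjusted p = 9.4e-04, edgeR). The median over the members was -1.72, against 0.01 over all genes tested. Total UMI scaling shifted the median of all genes by -0.24 and took the share of calls that were higher from 51.5% to 38.6%, with 40.1% under RLE scaling and 41.2% with DESeq2. All 7 calls and directions held under each of 23 alternatives that gave a test.

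The second question was what was left in round spermatids, the haploid cells after both divisions. Against later spermatocyte-like cells, 4 members were lower and 2 were higher, with 37.8% of all genes called lower and 37.0% higher. Sycp3 fell by 3.11 (SE 0.20, adjusted p = 9.9e-12, edgeR) and Sycp2 by 1.96 (SE 0.14, adjusted p = 5.7e-11, edgeR). Syce2 rose by 3.09 (SE 0.17, adjusted p = 5.7e-13, edgeR) and Syce3 by 1.85 (SE 0.14, adjusted p = 9.2e-11, edgeR). These 4 calls held under the same alternatives. The median of all genes shifted by -0.31 under total UMI scaling and by 0.24 under RLE scaling. DESeq2 gave 60.8% of its calls as higher where edgeR gave 49.5%, and it called 2 members lower, with 21.0% of all genes, because Syce1 and Tex12 were not called. Tex12 was lower by a log2 change of -0.78 (adjusted p = 0.00445, edgeR) between levels found in 25.0% and 11.6% of cells, both below its share in the few Sertoli-like cells. Syce1 had a log2 change of -0.55 (adjusted p = 0.00416, edgeR). Without the round spermatid sum of mouse 2, the adjusted p was 0.0966 for Tex12 and 0.0593 for Syce1 (edgeR), and it ranged over the alternatives from 3.8e-04 to 0.105 and from 1.5e-05 to 0.146. Sycp1 did not pass the test, with a log2 change of 0.08 (SE 0.14, adjusted p = 0.614, edgeR) under TMM and -0.23 under total UMI scaling.

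The third comparison, of elongating with round spermatid-like cells, depended on the scaling. The 12 elongating spermatid markers took 16.2% and 13.1% of UMIs in the later cells. TMM factors were 0.527 and 0.529 there and 0.959 and 0.958 in round spermatid-like cells. Total UMI scaling shifted the median of all genes by -0.85 on the log2 scale and moved the share of calls that were higher from 51.0% to 22.7%. Under TMM 3 members were higher and 2 lower, with 27.1% of all genes called higher and 26.1% lower. Under total UMI scaling 1 was higher and 4 were lower, with 14.7% and 50.0% of all genes.

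Only Syce2 was called higher under both scalings, by 1.65 (SE 0.15, adjusted p = 1.1e-08, edgeR) under TMM and 0.79 (adjusted p = 2.4e-04, edgeR) under total UMI scaling. Sycp1 fell by 1.32 (SE 0.16, adjusted p = 6.1e-07, edgeR) and Sycp2 by 1.25 (SE 0.17, adjusted p = 2.1e-06, edgeR), and under total UMI scaling by 2.18 and 2.11. After thinning, both genes were found in a smaller share of cells in both classes than in Sertoli-like cells. The Sertoli-like cells were too few to set a background level, so the part of background in these falls was not tested. Syce3 was higher by 0.56 (SE 0.13, adjusted p = 0.00115, edgeR) under TMM and changed by -0.30 (adjusted p = 0.0409, edgeR) under total UMI scaling. Sycp3 was higher by 0.54 (SE 0.21, adjusted p = 0.0353, edgeR) under TMM, while total UMI scaling gave -0.32 (adjusted p = 0.24, edgeR). Both classes lay below its share in the few Sertoli-like cells, and the part of background in this change was not tested. Its adjusted p was 0.352 without the round spermatid sum of mouse 2 and 0.547 without the elongating sum of mouse 1 (edgeR), within 0.00294 to 0.949 over all alternatives. When the unnamed cells were counted as round spermatid-like it was lower, at -0.72 (adjusted p = 0.00294, edgeR). Syce1 changed by 0.28 (SE 0.16, adjusted p = 0.148, edgeR) under TMM, by 0.28 (adjusted p = 0.0463, edgeR) with mouse as a block and by -0.58 (adjusted p = 0.00109, edgeR) under total UMI scaling, within 0.00109 to 0.899 over the alternatives. Tex12 changed by 0.35 (SE 0.28, adjusted p = 0.316, edgeR) under TMM and by -0.50 under total UMI scaling, neither of them called.

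**Figure D4:**
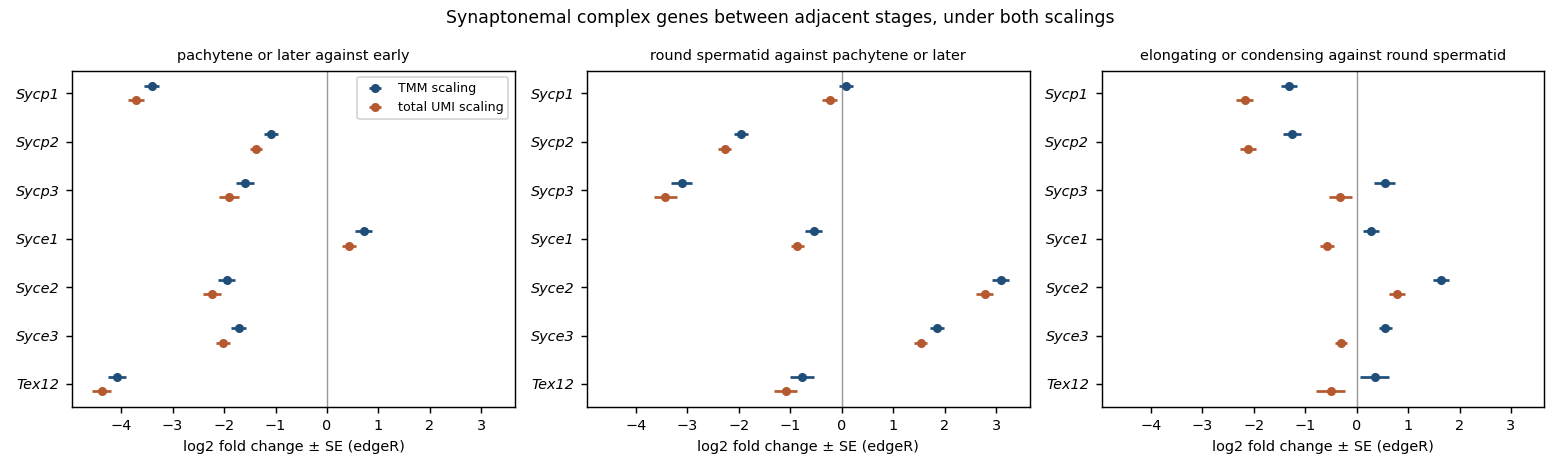
Fitted log2 fold changes with standard errors of the 7 genes in the 3 comparisons of successive named stages. Values under TMM scaling and under total UMI scaling are shown (edgeR, 2 mice). In the first panel no gene changes side between the scalings, in the second Sycp1 moves from 0.08 to -0.23, and in the third Sycp3, Syce1, Syce3 and Tex12 lie on opposite sides of 0 and Syce2 lies above 0 under both.

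Genes that work beside the complex were taken from 5 lists. The axis and cohesin list holds HORMA-domain proteins and cohesin subunits, and 3 of its 6 tested genes were lower in later spermatocyte-like cells than in early ones, where 23.6% of all genes were. Hormad1, which marks unsynapsed axes, was at 450 and 277 CPM and then at 90.3 and 80.1 CPM, a log2 change of -1.78 (adjusted p = 1.4e-07, edgeR). Hormad2 changed by -1.31 and Smc1b, a meiotic cohesin, by -0.71 (adjusted p = 3.1e-04, edgeR). In round spermatid-like against later spermatocyte-like cells 3 were higher and 3 lower, with 37.0% and 37.8% of all genes. Rec8, the meiotic cohesin kleisin, went from 3.93 and 3.09 CPM to 91.5 and 88.8 CPM, a log2 change of 4.97 (adjusted p = 3.2e-15, edgeR), and was at 80.9 and 78.7 CPM in unnamed cells. Smc3 rose by 2.90 and Hormad1 fell by 2.08. In elongating cells 4 of 6 were lower, against 26.1% of all genes, led by Rec8 at -2.14, Smc1b at -1.06 and Smc3 at -0.95. Rad21l, another kleisin, was listed at 0 in every class.

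Of the 10 genes for crossover formation and for proteins tied to the complex, 7 were lower in later spermatocyte-like cells, against 23.6% of all genes, and the list's median log2 change was -1.74. Ccnb1ip1, a crossover ligase regulator, fell by 4.22, 4930447C04Rik by 3.98 and the helicase gene Hfm1 by 2.68 (adjusted p = 6.9e-09, edgeR). From later spermatocyte-like to round spermatid-like cells 4 rose and 4 fell, shares near the 37.0% and 37.8% of all genes, with Ccnb1ip1 at -3.73, Tex11 at 3.36 and Brip1 at 2.41. Under RLE scaling the falls of 4930447C04Rik and Msh5 were not called (adjusted p = 0.0662 and 0.165, edgeR). In elongating cells Ccnb1ip1, at 0 and 0.165 CPM in round spermatid-like cells and 0.713 and 0.505 CPM after, and Msh4, at 15.3 and 11.1 and then 20.5 and 17.8 CPM, were called higher under TMM and not called under total UMI scaling, which called 7 of the 10 lower along with 50.0% of all genes. Brip1 did not pass the test there (log2 change -0.78, adjusted p = 0.232, edgeR).

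The telomere attachment list holds genes that tie chromosome ends to the nuclear envelope while homologues pair. Terb2 and Sun1, 2 of 5, were lower in later spermatocyte-like cells, at -2.92 and -1.74, where 23.6% of all genes were, and Majin had -0.93 (adjusted p = 0.0769, edgeR). In round spermatid-like cells 4 of 5 were lower, against 37.8% of all genes, among them Majin at -2.16 and Terb1 at -2.12, and Sun1, a nuclear envelope gene, was higher by 2.51 (adjusted p = 1.7e-11, edgeR). Terb1 at -0.78 and Ccdc155 at -0.69 were lower in elongating cells, 2 of 5 against 26.1% of all genes, and Majin was not called at -0.60.

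The list for removal of the complex and meiotic division ran the other way in the first comparison. In later spermatocyte-like cells all 7 genes were higher, as were 25.0% of all genes. Their median log2 change was 1.82, and that over all genes was 0.01. Plk1, a kinase that acts in disassembly of the complex, rose by 4.33 (adjusted p = 4.1e-12, edgeR), Ccnb1, a cyclin, by 4.08 and the kinase gene Aurkb by 3.01. Under total UMI scaling 5 of 7 were called, with 19.3% of all genes, without Ccnb2 and Skp1a, and no direction changed. Later, 5 were lower in round spermatid-like cells, against 37.8% of all genes, led by Cdk1 at -3.94, Aurkb at -3.34 and Aurkc at -1.38. There RLE scaling and DESeq2 kept 5 lower and also called 2 higher, with 40.5% and 32.6% of the genes they tested called higher. In elongating cells 5 were lower, against 26.1%, led by Plk1 at -2.13, Ccnb1 at -1.89 and Ccnb2 at -1.65.

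Sequence relatives of the members mostly had few UMIs. Of 15, 11 did not pass the filter on low counts, and Sycp2l, the relative of Sycp2, was listed at 0 in every class. Of all 27280 genes with a UMI, 14726 passed. Syce1l, the relative of Syce1, was at 49.5 and 66.1 CPM in early spermatocyte-like cells and at 136 and 133 CPM in later spermatocyte-like cells. This was a rise of 1.45 (adjusted p = 6.1e-07, edgeR), in the direction of Syce1. Along the ordering Syce1l peaked in bin 4 in mouse 1 and bin 7 in mouse 2, and Syce1 in bins 4 and 3. Slxl1 was called higher at 1.13 (adjusted p = 0.0475, edgeR), a call lost under total UMI scaling, and Xlr was not called at 0.85. In that comparison 25.0% of all genes were called higher. The 3 sex-linked relatives of Sycp3 that passed the filter were higher in round spermatid-like cells, Sly by 5.16, Slxl1 by 4.26 and Xlr by 1.95, while Syce1l was lower. Of all genes, 37.0% were called higher and 37.8% lower there. Slxl1 was at 3.45 and 5.23 CPM in later spermatocyte-like cells and at 69.2 and 62.1 CPM in round spermatid-like cells, whereas Sycp3 went from 388 and 354 to 39.8 and 29.5 CPM. In elongating cells Sly was higher by 2.07 and Xlr, Slxl1 and Syce1l were lower, with Xlr at -3.05 and Syce1l at -0.69. The shares of all genes were 27.1% called higher and 26.1% lower. The sex-linked relatives are multicopy genes. The paper added repeats separately to the genome because reads mapping to several places would otherwise be excluded. How many shared reads of these genes were left out was not tested, so their low counts are not read as low expression.

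The members' courses over the 10 class-by-mouse sums, were compared as log2(CPM + 10). Pearson's r among Sycp1, Sycp2, Sycp3 and Tex12 ran from 0.80 between Sycp2 and Tex12 to 0.97 between Sycp2 and Sycp3. It was -0.95 between Syce1 and Syce2, and Syce2 and Tex12, whose products form 1 assembly, had -0.01. The sums share 2 libraries and follow 1 order of stages, so these are descriptions. Among 7896 genes with at least 500 UMIs, Tex12 was closest to Ccdc122 (r = 0.999), Nucks1 and Rbm22, and Sycp2 to the splicing gene Srsf3 (r = 0.998), Snrnp25 and Emg1. Sycp1 was closest to Rps9 (r = 0.994), Scaper and Polr2j, Sycp3 to the cohesin acetyltransferase gene Esco1 (r = 0.998), Pnn and U2surp, and Syce1 to Dlec1 (r = 0.993), Edf1 and Psenen. Pearson's r takes no account of the size of a change. Rps9 was at 742 CPM in early spermatocyte-like and 271 CPM in elongating cells, and Sycp1 at 1255 and 18.2 CPM. Syce2 was closest to Desi2 (r = 0.989), Eif4g1 and 2410015M20Rik. Syce3 had the least close match, Vprbp at r = 0.945, ahead of Ap3s1 and Fnbp1l. Farsa, the gene upstream of Syce2 on the same strand, was at 64.0 CPM in early spermatocyte-like cells and 4.43 CPM in elongating cells. It fell in the first step as Syce2 did, from 64.0 to 40.5 CPM, and did not share the later climb, with 13.7 CPM in round spermatid-like cells.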

How the data were processed

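Testis cells of 2 mice were profiled as 1 library each. The deposited matrix holds UMI counts per gene and cell, which the authors made with bcl2fastq 2.17.1.14 and Cell Ranger 2.0.0 (submitters' processing notes) from a repeat-masked GRCm38 genome with Ensembl genes and added repeat sequences, joining both mice after equalising read depth. Counts were used as deposited. The mouse of each cell was read from the ending of its barcode. The matrix has 51868 rows, 50686 of them genes, of which 27280 had a UMI, and 1182 repeats. Median depth was 17871 and 19184 UMIs per cell. Intervals cover counting error only.

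Counts were scaled per cell to the median depth, log2(1 + x) transformed, centred and scaled, and 10 principal components entered K-means (K = 9, seed 42). A cluster was named where at least 3 markers of a class reached 1.5 times their level in all cells. Scrublet called 25 doublets, which were kept in the main results. Diffusion pseudotime came from scanpy 1.11.5 with 15 neighbours. Class sums were tested, two-sided at an adjusted p under 0.05, with edgeR 4.0.16 (quasi-likelihood, TMM, filterByExpr) in R 4.3.3, and with DESeq2 1.42.0 as an alternative. The 5 classes with at least 20 cells in each mouse entered 1 fit. The SE given with edgeR is the absolute log2 change divided by the square root of the F statistic of its test. On simulated counts, edgeR recovered 167, 179 and 191 of 200 genes changed 4-fold in the 3 comparisons. False calls were 6, 6 and 9 among 11788, 11441 and 12096 genes. All simulated classes shared the same base profile apart from the changed genes, with a fixed spread. The simulation therefore does not cover the shifts in composition between the real classes, whose TMM factors ran from 0.527 to 1.55. Sums with the same number come from the same mouse, and the deviations of paired classes correlated at 0.0281 to 0.202 over 14726 genes. Classes of 1 mouse share a library, so p-values rest on the spread between 2 mice.

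All members were named. Of each related list, up to 3 genes with the largest log2 change per comparison were named, and for each member the 3 genes with the highest Pearson's r to it. Members and lists were chosen with earlier results of these data known. Gene models came from GENCODE on GRCm38, promoters from RefSeq on GRCm38.p6, and all 7 members matched by symbol.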

Additional observations from a re-analysis of the deposited data

How the results depend on the processing

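Over 525 recomputed member log2 changes, 490 kept their side of the threshold, or, where no test was possible, moved by less than 1 SE of the fitted change. A change of sign between values that were both not called counts among them, such as Tex12 at -0.50 under total UMI scaling in the last comparison. Another 15 moved further without a test, 12 lost a call, 3 gained one and 5 changed sign with a call on either side. These 5 were all in elongating or condensing against round spermatid-like cells. Total UMI scaling, chosen after seeing the data, gave -0.32 for Sycp3, -0.58 for Syce1 and -0.30 for Syce3, with 1 member higher and 4 lower. For Sycp3, clustering on 2000 variable genes gave -0.0187, and unnamed cells counted as round spermatid-like (also added later) gave -0.72. Sycp3 there also lost its call without the gene filter (adjusted p = 0.0951, edgeR), without doublets (0.111, edgeR) and with unnamed cells counted as pachytene or later (0.0761, edgeR), within 0.00294 to 0.949 over its alternatives. Between round spermatid-like and pachytene or later cells, DESeq2 called 2 members lower (21.0% of genes it tested) in place of 4, since Syce1 and Tex12 lost their calls. RLE scaling removed the Syce1 call there (adjusted p = 0.0621, edgeR). The replicate block on mouse gained 1 call, Syce1 at 0.28 (adjusted p = 0.0463, edgeR), in the last comparison and changed no other member call, but left 1 sequence relative called in the first. That list (2 calls) also had 1 under RLE, total UMI scaling, no gene filter, DESeq2 and doublets left out, and 1 to 2 when single sums were left out; in the last comparison (4 calls) DESeq2 gave 2. The axis list (3 calls in the first comparison) had 5 with 2000 variable genes and with unnamed cells as pachytene or later. Of all 14726 genes in the main fit, 3682 were called higher and 3471 lower there. With 2000 variable genes these were 4721 and 3770 of 14806, and with unnamed cells as pachytene or later 5064 and 3544 of 14416. In the last comparison the crossover list (2 calls) had 7 under total UMI scaling, 4 with 2000 variable genes and 1 with DESeq2. The telomere list (2 calls) there had 1 under RLE, DESeq2 and unnamed as pachytene or later. In that comparison 27.1% of all genes were called higher and 26.1% lower in the main fit. Total UMI scaling called 14.7% and 50.0%, DESeq2 21.8% and 16.4%, and RLE 29.1% and 23.4%. With 2000 variable genes 4349 and 4396 of 14806 were called, and with unnamed as pachytene or later 3741 and 3488 of 14416. DESeq2 called 3 of the telomere list (5 calls) in the second comparison. The number of all genes called differed between settings as well, so these counts are not read as a trait of the lists. The cause of these differences was not tested. With either mouse alone, which leaves no test, the peak classes of all members were as with both. Precision is limited by the 2 mice, by the 1248 UMIs of Tex12 and by the 164 early cells, 53 of them in mouse 1.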
